A study of Mus musculus and Ochotona curzoniae and Rattus norvegicus with 18 samples.

Results

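The tricarboxylic acid cycle enzymes described here are 9 genes, CS, IDH2, IDH3A, IDH3B, OGDH, SUCLA2, SUCLG1, MDH1 and MDH2, taken by symbol from the pika tables and matched to the mouse gene with the same symbol. All 9 were among the 14419 genes joined between the species, and all 9 passed the filter on low values. The study sequenced RNA from cultured fibroblasts of 4 species, with 3 libraries each, and also lists 6 ChIP-seq samples of mouse fibroblasts that are not analysed here. The comparison was between Tibetan pika (Ochotona curzoniae) fibroblasts, for which no strain is given, and C57BL/6J mouse fibroblasts, both labelled as coming from epidermis. Both were grown in DMEM with 10% FBS under 5% CO2 to 90% confluency, and no treatment, genotype, age or oxygen level is given for these cultures. The rat and rabbit libraries were not used, because no table used here gives symbols for their gene identifiers. Nothing in the labels ties the 3 libraries of a species to different animals or cultures, so each p-value here speaks of the spread among these libraries alone, and that spread may be technical.

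The tricarboxylic acid cycle is the mitochondrial pathway that oxidises the acetyl group of acetyl-CoA to carbon dioxide and passes the electrons to the respiratory chain as NADH and FADH2. Citrate synthase starts it, isocitrate dehydrogenase and 2-oxoglutarate dehydrogenase release carbon dioxide, succinyl-CoA synthetase forms a nucleotide triphosphate, and malate dehydrogenase regenerates oxaloacetate. In cultured fibroblasts the cycle also supplies citrate, aspartate and 2-oxoglutarate, and 2-oxoglutarate is a substrate of the hydroxylases that mark HIF proteins for breakdown.

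The totals behind the libraries, worked out from the steps of the FPKM values, were 7703576 to 8481030 reads in pika and 3663102 to 5758950 in mouse. FPKM is a level per length of gene model and per library size, and the 10 most abundant rows held 4.31% to 4.32% of it in pika and 39.1% to 40.95% in mouse. Therefore every library was put on a scale where its joined genes add up to 1000000, and levels below are rescaled FPKM. Of 10 fibroblast markers in both tables none was at 0 in any library, with summed levels of 12640 to 13050 in pika and 14110 to 14500 in mouse. COL1A1, the main fibrillar collagen chain of skin, averaged 4786 in pika and 4811 in mouse, and the mesenchymal filament gene VIM averaged 4334 in pika and 5298 in mouse, while COL3A1, another collagen chain, averaged 22.9 in pika and 954.7 in mouse. Further fibroblast markers differed in both directions. PDGFRA averaged 3.47 in pika and 65.1 in mouse, and PDGFRB 187.0 in pika and 386.7 in mouse. FAP averaged 41.7 in pika and 1.23 in mouse, and DCN 268.9 in pika and 115.3 in mouse. Among 7 keratinocyte markers, KRT5, KRT14, KRT10, KRT15, EPCAM and CDH1 were listed at 0 in every pika library. The summed level of the 7 was 0.121 to 0.201 in pika and 47.8 to 53.9 in mouse. Most of the mouse level was DSP, at 42.7, 46.9 and 46.0, and KRT10 stood at 4.41, 5.48 and 5.24 there. The summed levels of endothelial markers were 0.707 to 1.60 in pika and 32.3 to 39.3 in mouse, where TEK alone stood at 35.2, 27.3 and 31.7. Those of the 4 leukocyte markers were 2.94 to 4.73 in pika and 20.1 to 35.3 in mouse. Those of the 4 melanocyte markers were 68.1 to 78.5 in pika and 54.8 to 58.3 in mouse. Within that sum PMEL averaged 31.6 in pika and 4.97 in mouse, and MITF 40.2 in pika and 50.45 in mouse. Skeletal muscle markers summed to 2.26 to 2.90 in pika and 4.02 to 7.08 in mouse. Adipocyte markers summed to 0.960 to 1.41 in pika and 59.4 to 63.6 in mouse. The part of these markers in the results was not tested, and in bulk samples fewer cells of a type and less RNA per cell cannot be told apart.

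The series set out to map binding of Epas1, a HIF subunit, and some ChIP titles name Bmal, a clock factor known to bind E-boxes, so the mouse promoters of the members were read for the short core motifs of these factors. RefSeq windows of GRCm38.p6 matched 8 of the 9 members, with no entry for Idh3a, and the 250 bases before each start were searched on both strands. The hypoxia response core ACGTG was present in 2 of the 8 members, OGDH and MDH1, and in 16.6% of all 32851 mouse windows. Its G form GCGTG was present in 4 of the 8, IDH2, OGDH, SUCLG1 and MDH2, and in 28.2% of all windows. The E-box CACGTG, which contains ACGTG on both strands, was present in OGDH among the 8 and in 6.02% of all windows. Motifs of 3 factors known for mitochondrial genes were also searched. The ERR element AAGGTCA and the ETS element CCGGAAG were in 0 of the 8 members, against 4.08% and 6.91% of all windows, and the inner part GCATGC of the NRF1 element was in OGDH alone, against 6.7%. OGDH has 6 windows and the others 1 each. A member counted if any of its windows held the motif, while the shares are of single windows. The only IDH2 window lies before a start inside the gene. These matches describe letters in the windows and say nothing of binding.

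The windows of the 3 genes called higher in pika are shown because the results turn on them. An Ogdh window that holds the E-box is shown too, and further Ogdh windows, not shown, also hold an E-box. Capitals mark, on either strand, the hypoxia response cores, the E-box and the palindrome named after the sequences. The Suclg1 window lies at chr6:73248255-73248504 (plus strand), that of Mdh1 at chr11:21571935-21572184 (minus strand), that of Mdh2 at chr5:135778399-135778648 (plus strand) and that of Ogdh, before a start inside the gene, at chr11:6291920-6292169 (plus strand).
Suclg1: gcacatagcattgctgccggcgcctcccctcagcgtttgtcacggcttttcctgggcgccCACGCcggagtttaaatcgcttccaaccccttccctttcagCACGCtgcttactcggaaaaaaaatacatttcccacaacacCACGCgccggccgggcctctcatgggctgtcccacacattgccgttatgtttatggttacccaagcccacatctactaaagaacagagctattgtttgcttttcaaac
Mdh1: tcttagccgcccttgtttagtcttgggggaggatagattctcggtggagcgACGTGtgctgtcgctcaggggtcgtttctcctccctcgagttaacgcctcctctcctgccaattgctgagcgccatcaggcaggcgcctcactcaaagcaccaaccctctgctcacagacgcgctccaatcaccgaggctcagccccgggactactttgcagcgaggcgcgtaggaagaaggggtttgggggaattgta
Mdh2: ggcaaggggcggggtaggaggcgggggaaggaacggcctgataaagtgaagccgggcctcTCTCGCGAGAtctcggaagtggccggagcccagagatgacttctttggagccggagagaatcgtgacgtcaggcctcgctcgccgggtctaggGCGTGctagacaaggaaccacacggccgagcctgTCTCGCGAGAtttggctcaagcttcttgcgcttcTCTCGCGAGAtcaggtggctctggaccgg
Ogdh: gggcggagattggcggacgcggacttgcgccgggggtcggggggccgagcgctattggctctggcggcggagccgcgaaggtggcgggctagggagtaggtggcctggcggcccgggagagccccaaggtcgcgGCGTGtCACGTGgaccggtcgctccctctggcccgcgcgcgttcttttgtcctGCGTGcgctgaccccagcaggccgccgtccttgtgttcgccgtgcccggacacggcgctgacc
The palindrome TCTCGCGAGA, the motif of the factor BANP, occurred 3 times in the Mdh2 window. It was picked after the sequences were read, as a palindrome found 3 or more times in a member's window, so that count was fixed by the choice. It was found in 128 of the 32851 windows, or 0.39%, and 2 of them held it 3 or more times.

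Of the 9 enzymes, 3 were called higher in pika, 0 lower and 6 were not called. Calls needed both a limma-trend adjusted p under 0.05 (Benjamini-Hochberg) and a log2 fold change of at least 1 in either direction. Among all 10349 tested genes 28.7% were called higher and 23.5% lower, so the 3 of 9 is near the background share. SUCLG1, MDH2 and MDH1 were the genes called. The median log2 fold change of the 9 was 0.75, beside 0.21 over all tested genes, and their summed level was 2301 ± 33.7 in pika and 1267 ± 9.86 in mouse (SD, n = 3 each). The 3 pika libraries lay above the 3 mouse libraries for 7 of the 9 and below them for SUCLA2, while 49.6% of all tested genes had pika above without overlap and 39.4% below. By the adjusted p alone 6 were higher and 0 lower, beside 49.4% and 39.2% of all genes. Only CS overlapped between the species. No member was called lower under any alternative tried, and 9 were called higher without rescaling, where 58.3% of all genes were called higher and 10.7% lower. The shares of all genes called higher and lower were 25.0% and 26.2% with median-of-ratios scaling and 26.1% and 25.2% with TMM scaling, where 2 members were called higher.

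**Figure D1:**
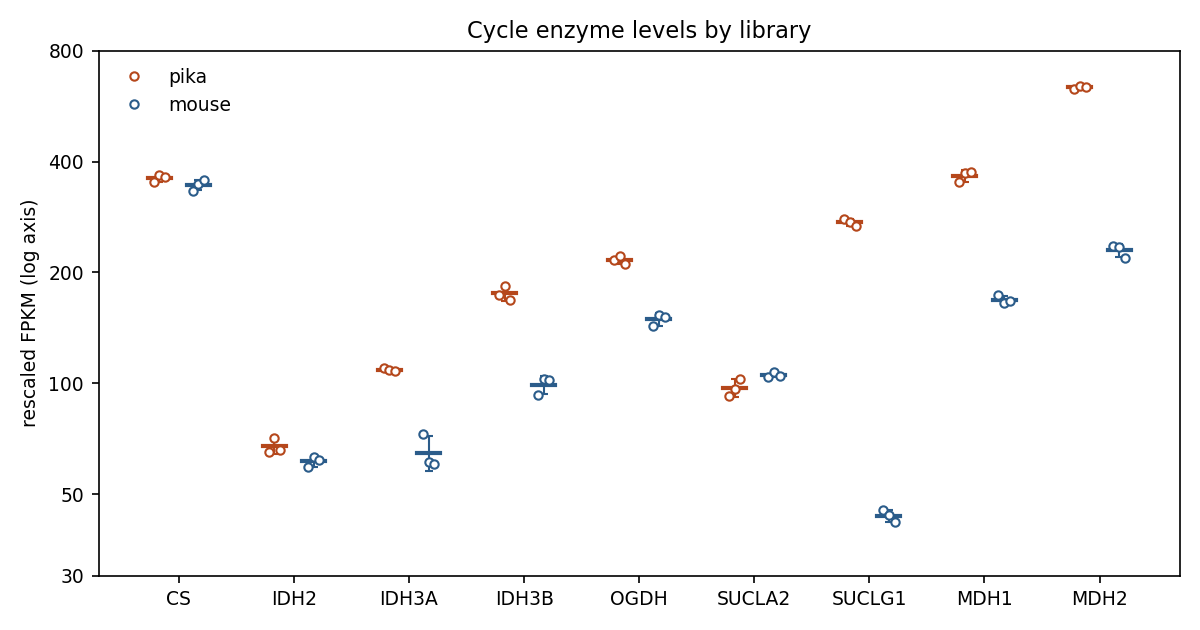
Level of each cycle enzyme in rescaled FPKM on a log axis, with a point per library, a bar for the mean and whiskers for the SD over 3 libraries, pika left of mouse. SUCLG1 is farthest apart, at 266.6 to 279.8 in pika and 41.95 to 45.2 in mouse, while CS overlaps.

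Citrate synthase, the CS product, joins acetyl-CoA to oxaloacetate at the entry of the cycle. CS was at 351.0, 368.0 and 362.7 rescaled FPKM in pika and 333.5, 348.1 and 355.8 in mouse. The libraries of the species overlapped, and the log2 fold change was 0.06 (95% interval -0.02 to 0.14, limma-trend adjusted p = 0.15). The gene models were of nearly equal length, 2941 bases in pika and 2828 in mouse. Per length of the gene model CS was the most abundant of the 9 in mouse and stood after MDH2 and MDH1 in pika, where its range overlapped that of MDH1. Its difference moved with the scale, to -0.12 with median-of-ratios scaling, -0.05 with TMM scaling, and 1.16, a call, for reads not divided by gene length.

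Isocitrate dehydrogenase exists in mitochondria as an NADP-linked enzyme, IDH2, and as an NAD-linked enzyme made of the catalytic subunit IDH3A with IDH3B and IDH3G. IDH2 was at 64.9, 71.2 and 66.0 rescaled FPKM in pika and 59.1, 63.2 and 62.0 in mouse. The pika libraries lay just above the mouse ones, and the difference was not called, with a log2 fold change of 0.13 (95% interval -0.01 to 0.27, limma-trend adjusted p = 0.067) that was -0.04 with median-of-ratios scaling. It was the least abundant of the 9 per length in pika, and in mouse its range overlapped that of IDH3A next to it. IDH3A was at 110.2, 108.4 and 108.0 in pika, against 72.95, 61.1 and 60.2 in mouse. The mouse libraries lay below all pika libraries, with one of them above the other mouse libraries. The log2 fold change of IDH3A was 0.75 (SE 0.08, limma-trend adjusted p = 8.4e-06), under the fold minimum. IDH3B was at 173.4, 184.1 and 168.6 in pika, against 92.6, 102.8 and 101.9 in mouse, with no overlap. Its log2 fold change of 0.82 (SE 0.06, limma-trend adjusted p = 5e-07) was also under the fold minimum. IDH3G, the remaining regulatory subunit and not among the 9, stood at 0.60.

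OGDH is the first component of the 2-oxoglutarate dehydrogenase complex, which consumes 2-oxoglutarate. It was at 216.5, 221.4 and 210.3 rescaled FPKM in pika and 142.6, 153.6 and 151.1 in mouse. All pika libraries were above all mouse libraries, and the log2 fold change of 0.53 (SE 0.04, limma-trend adjusted p = 1.8e-06) stayed under the fold minimum. DLST, the succinyltransferase of the same complex, was at 171.9, 181.9 and 169.2 in pika, against 218.3, 249.6 and 224.4 in mouse. Its log2 fold change was -0.40 (SE 0.06), opposite in sign to that of OGDH, and it was not called. DLD, the dihydrolipoyl dehydrogenase that the complex shares with pyruvate dehydrogenase, had a log2 fold change of 0.19 and was not called. For reads not divided by length DLD was called higher (1.17). OGDHL, a paralog of OGDH, had the value 0 in each of the 3 pika libraries, and stood at 63.0, 56.3 and 65.5 in mouse, and counted among the genes called lower. Reads of paralogs of similar sequence can be split between them in the counting, and whether this bears on the values of OGDH and OGDHL was not tested.

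Succinyl-CoA synthetase is a pair of the alpha subunit SUCLG1 with either the ATP-forming beta subunit SUCLA2 or the GTP-forming beta subunit SUCLG2. SUCLG1 was at 279.8, 273.5 and 266.6 rescaled FPKM in pika and 45.2, 43.9 and 41.95 in mouse. The pika libraries were far above the mouse ones, by a 6.25-fold ratio of means and a log2 fold change of 2.62 (95% interval 2.51 to 2.73, limma-trend adjusted p = 9.2e-11). That difference was above that of 94.0% of all tested genes. The mouse gene lies at chr6:73248505-73276907 (GRCm38). Per length SUCLG1 stood in the fourth place of the 9 in pika and in the last place in mouse, while IDH2 had the fewest reads in all 6 libraries. These levels rested on 1362, 1263 and 1351 reads in pika and 224, 140 and 175 in mouse, over models of 1292 bases in pika and 4617 in mouse. SUCLG1 was called under each of the 16 alternatives, with a log2 fold change between 1.84 for reads not divided by gene length and 3.79 without rescaling.

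SUCLA2, the beta subunit of the ATP-forming enzyme, was at 92.1, 96.7 and 102.9 rescaled FPKM in pika and 104.2, 107.1 and 104.9 in mouse. The pika libraries were slightly below the mouse ones, and the log2 fold change of -0.12 was not called (95% interval -0.24 to 0.003, limma-trend adjusted p = 0.062) and was 1.14 without rescaling. SUCLG2, the other beta subunit, was at 63.0, 64.0 and 62.7 in pika, against 36.9, 35.4 and 32.3 in mouse. Its log2 fold change of 0.84 was not called. It passed the fold minimum once the trend on gene length was removed (1.01) and for reads not divided by length (1.29). The level of both beta subunits together, divided by that of the alpha subunit in the same library, was 0.554, 0.587 and 0.621 in pika and 3.12, 3.25 and 3.27 in mouse, a quantity added after the values were seen. Per length of the gene model the alpha subunit exceeded the summed beta subunits in each pika library and was below them in each mouse library. In reads not divided by length the beta subunits exceeded the alpha subunit in every library of both species, by ratios of 1.03, 1.08 and 1.13 in pika and 2.81, 2.91 and 2.93 in mouse.

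Malate dehydrogenase converts malate to oxaloacetate, with MDH2 in mitochondria and MDH1 in the cytosol, and together they carry reducing equivalents across the inner membrane in the malate-aspartate shuttle. MDH2 was at 631.5, 641.4 and 637.6 rescaled FPKM in pika and 236.3, 234.1 and 218.8 in mouse. No library of either species came near the other, and the log2 fold change was 1.47 (SE 0.04, limma-trend adjusted p = 5.5e-10). MDH2 was the most abundant of the 9 in pika per length of the gene model, while CS had the most reads of the 9 in every library of both species. The mouse gene of MDH2 lies at chr5:135778649-135790386. Its model had 1213 bases in pika and 3562 in mouse, and for reads not divided by gene length its log2 fold change of 0.95 was under the fold minimum. MDH1 was at 351.0, 372.5 and 373.6 in pika, against 173.5, 164.7 and 166.9 in mouse. The species did not overlap, and the log2 fold change was 1.11 (SE 0.04, limma-trend adjusted p = 5.4e-09). The mouse gene of MDH1 lies at chr11:21556692-21571934. MDH1 lost its call at 0.94 with median-of-ratios scaling and at 0.999 with TMM scaling.

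**Figure D2:**
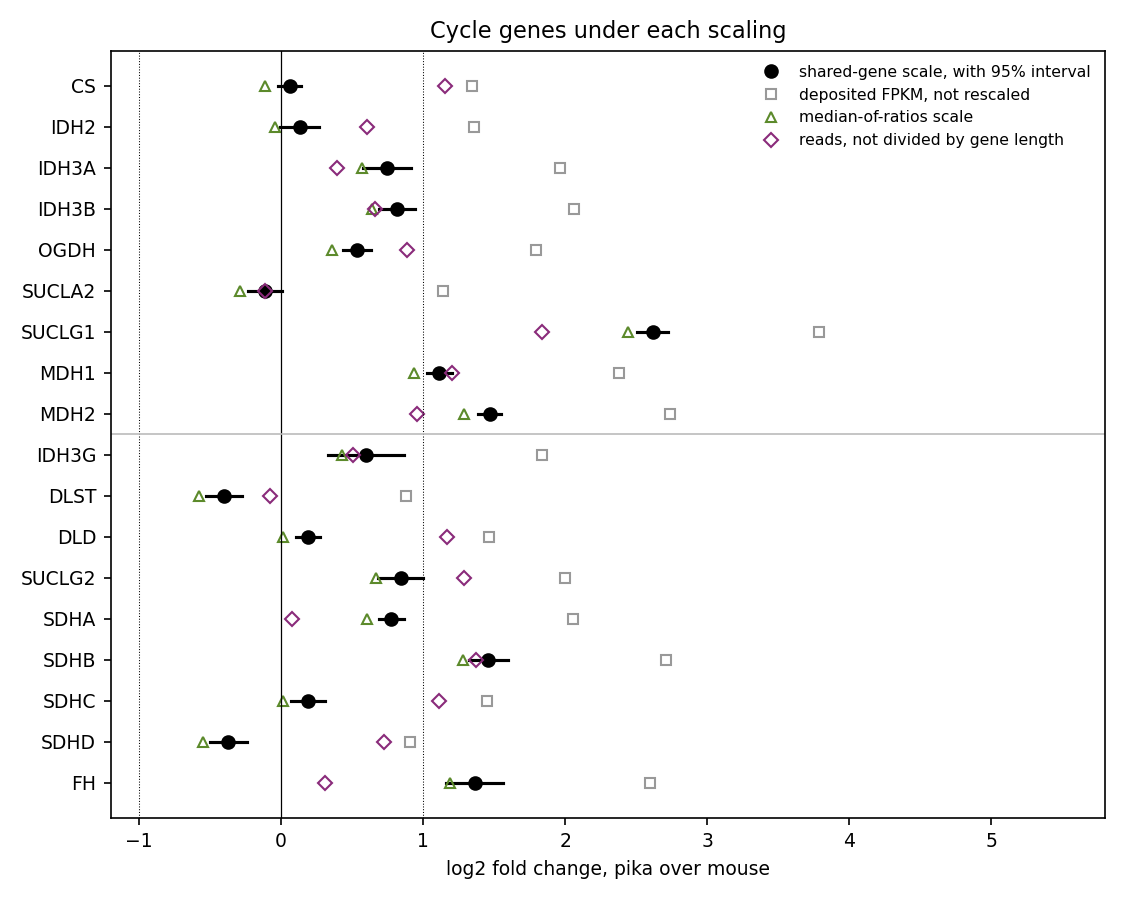
Log2 fold change of pika over mouse for the 9 enzymes (above the grey line) and 9 other cycle genes, with the 95% interval on the shared-gene scale and the value under 3 other scalings; dotted lines mark the fold minimum of 1. SUCLG1 lies right of the minimum under every scaling shown, from 1.84 to 3.79, and SUCLA2 lies left of 0 except without rescaling.

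Of 9 other genes of the cycle, 2 were called higher in pika, 0 lower and 7 not called. Their median log2 fold change was 0.60. Over all tested genes 28.7% were called higher and 23.5% lower. SDHB, the iron-sulfur subunit of succinate dehydrogenase, was at 326.5, 345.0 and 340.7 rescaled FPKM in pika and 116.1, 134.5 and 116.2 in mouse (log2 fold change 1.46, SE 0.06). FH, fumarate hydratase (Fh1 in mouse), was at 229.4, 215.2 and 224.8 in pika, against 76.1, 83.7 and 100.2 in mouse (1.36, SE 0.09). For both genes the pika libraries stood clear of the mouse ones, but for reads not divided by gene length FH was at 0.31 and no longer called. The catalytic subunit SDHA had a log2 fold change of 0.78 and stayed under the minimum. The membrane anchors SDHC (0.19) and SDHD (-0.37) were not called either, and they differed in sign. For reads not divided by length SDHC was called higher (1.11), and SDHD was at 0.73 and not called.

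Species, genome and annotation cannot be told apart in these differences. The length of the gene models differed between the species and bears on each of these values, since FPKM divides by it. The median ratio of mouse to pika model length was 2.25 over 9947 tested genes with both lengths and 2.05 over the 9 enzymes. Over all genes the log2 fold change grew by 0.297 for each doubling of the mouse-to-pika length ratio. Genes with a ratio over 3 were called higher in 38.2% and lower in 16.4%, and those with a ratio under 1.5 were called higher in 18.5% and lower in 28.5%. With this trend removed, SUCLG1 stood at 2.42, MDH2 at 1.35 and MDH1 at 1.18, and these 3 were again the genes called among the 9, with 27.7% of all genes called higher and 21.4% lower. Fewer reads fall on a shorter model, which makes undivided reads depend on the models as well. The undivided reads called CS, SUCLG1 and MDH1, with 26.5% of all genes called higher and 27.4% lower.

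**Figure D3:**
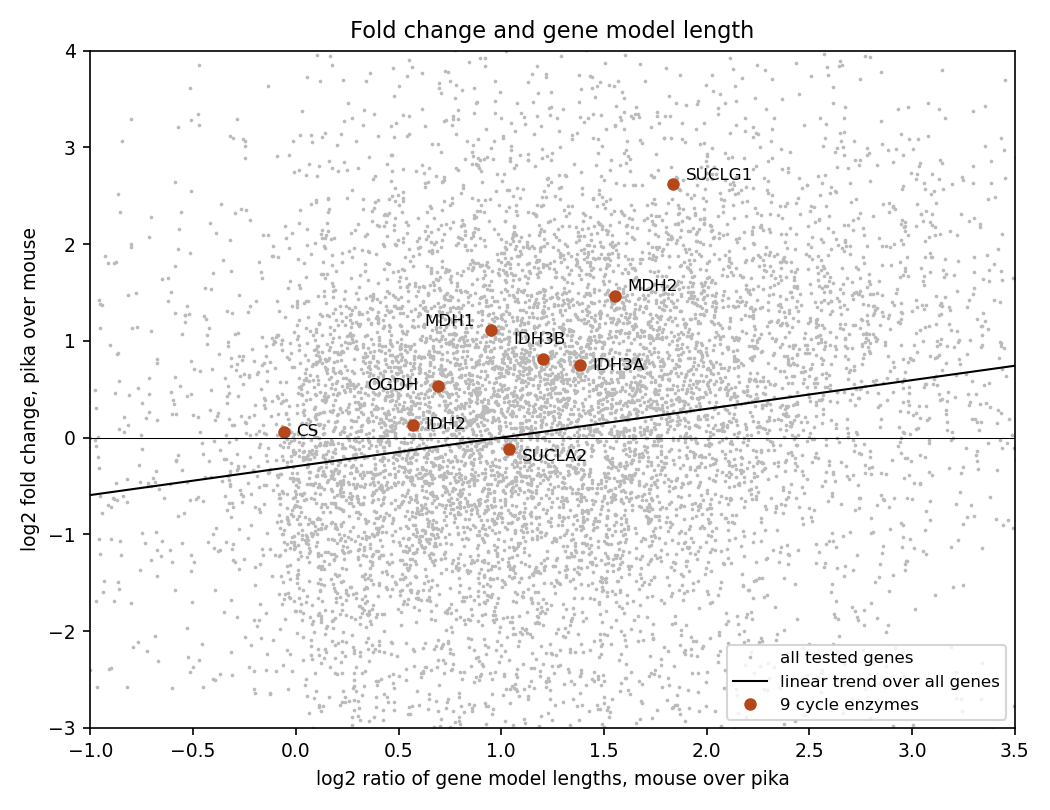
Log2 fold change of pika over mouse against the log2 ratio of gene model lengths (mouse over pika) for tested genes in grey, the linear trend over all of them, and the 9 enzymes in colour; 933 of 9947 genes lie outside the axes. SUCLG1 (2.62) has the largest fold change and the largest length ratio of the 9, and CS (0.06) the smallest ratio.

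Ratios between enzymes within a library do not depend on how libraries are scaled to each other. Of 9 ratios of FPKM compared between the species, 8 had libraries that did not overlap. Among single tested genes 49.6% had pika above mouse without overlap and 39.4% below. No such share was worked out for ratios of other genes, so the 8 of 9 is not read as particular to these enzymes. With 3 libraries against 3, an exact two-sided permutation test cannot go below p = 0.1, which those 8 reached (Benjamini-Hochberg adjusted p = 0.112 over the 9 ratios), so none can pass 0.05. SUCLA2 over SUCLG1 was 0.329, 0.354 and 0.386 in pika and 2.31, 2.44 and 2.50 in mouse. MDH2 over CS was 1.80, 1.74 and 1.76 in pika and 0.708, 0.673 and 0.615 in mouse. Per length, the more abundant gene of the pair differed between the species in both ratios. In reads not divided by length this held for SUCLA2 and SUCLG1 only, and CS had more reads than MDH2 in all 6 libraries, with 3868 to 4184 against 2781 to 3034 in pika and 680 to 1012 against 576 to 903 in mouse.

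DLST over OGDH was 0.794, 0.822 and 0.805 in pika and 1.53, 1.62 and 1.49 in mouse. IDH2 over IDH3A was 0.589, 0.657 and 0.612 in pika and 0.810, 1.04 and 1.03 in mouse. MDH1 was the less abundant malate dehydrogenase in both species, with MDH1 over MDH2 at 0.556, 0.581 and 0.586 in pika, against 0.735, 0.703 and 0.763 in mouse. IDH3A over IDH3B, the ratio of 2 subunits of the NAD-linked enzyme, was 0.636, 0.589 and 0.640 in pika and 0.788, 0.594 and 0.591 in mouse and overlapped (exact permutation p = 0.8, two-sided). For reads not divided by length, the log2 difference of pika from mouse took the opposite sign to that in FPKM for 5 of the 9 ratios. These were IDH2/IDH3A, MDH1/MDH2, IDH3A/CS, OGDH/CS and MDH2/CS. The differences in SUCLA2/SUCLG1 (-1.96 for reads), SUCLA2/SUCLG2 (-1.42) and DLST/OGDH (-0.97) kept the sign they had in FPKM.

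**Figure D4:**
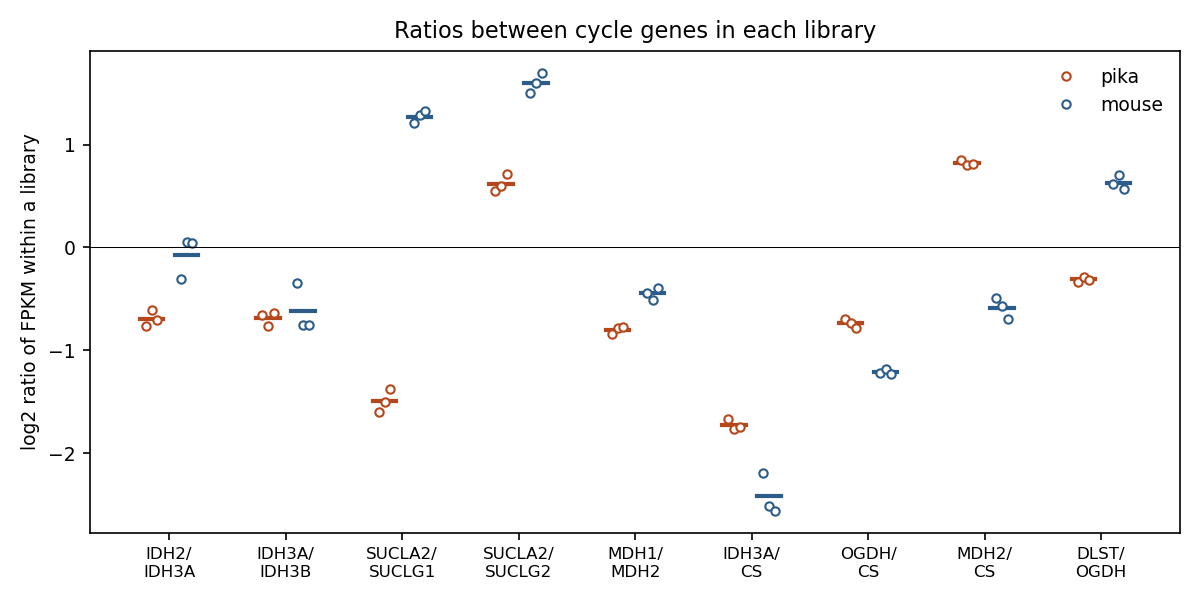
Log2 ratio of FPKM between cycle genes within each library, with a point per library and a bar for the mean, pika left of mouse. SUCLA2/SUCLG1 lies below 0 in the 3 pika libraries and above 0 in the 3 mouse libraries, and MDH2/CS lies the other way round.

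Of 6 tested genes that feed the cycle from pyruvate, 4 were called higher in pika and 0 lower. The shares over all tested genes were 28.7% higher and 23.5% lower. PDHX, the binding component of the pyruvate dehydrogenase complex, was at 140.1, 137.9 and 143.4 rescaled FPKM in pika and 16.4, 21.7 and 17.2 in mouse (log2 fold change 2.87). PDHB (1.09), a subunit of its first component, and the carrier subunits MPC1 (1.87) and MPC2 (3.02), which bring pyruvate into mitochondria, were also called. PDHA1, the partner of PDHB in that component, was at 205.3, 190.1 and 197.9 in pika, against 346.7, 352.0 and 353.9 in mouse. Its pika libraries lay below all mouse libraries, and at -0.83 on the log2 scale (limma-trend adjusted p = 2.9e-08) the difference was under the fold minimum. PDHA1 was called lower with median-of-ratios scaling (-1.001) and for reads not divided by length (-1.19). PDHB lost its call with median-of-ratios (0.92) and TMM scaling (0.98). For reads not divided by length MPC1 (-0.14) and MPC2 (-0.06) were not called, with models of 249 and 397 bases in pika and 2082 and 7344 in mouse.

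Among the kinases and phosphatases of that complex, 3 of 7 were called higher and 1 lower, beside 28.7% and 23.5% of all tested genes. PDK4, a kinase that switches the complex off, was at 0.846, 0.243 and 0.887 in pika, against 19.1, 25.2 and 20.5 in mouse (log2 fold change -3.78). The hypoxia-responsive kinase PDK1 was higher (1.77), as were the phosphatases PDP1 (1.26) and PDP2 (1.39) that switch the complex on. PDK3, another kinase, was called lower with median-of-ratios (-1.15) and TMM scaling (-1.08). For reads not divided by length PDK1 (0.29), PDP2 (0.61) and PDK3 (-0.38) were not called.

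Among genes that bring glutamine or aspartate carbon into the cycle, glutamate dehydrogenase GLUD1 had a log2 fold change of -0.07 and the mitochondrial aspartate aminotransferase GOT2 one of 0.77, and neither was called. GOT2 was called higher for reads not divided by length (1.80) and with the trend on gene length removed (1.11). Of 11 tested cytosolic and shuttle relatives, 1 was called, the aspartate-glutamate carrier SLC25A12 (1.42). The shares of all tested genes were 28.7% called higher and 23.5% lower. ACLY, which splits citrate in the cytosol (0.79), and the citrate carrier SLC25A1 (0.63) were not called. ACLY was called higher, however, for reads not divided by length, and also with the trend on gene length removed (1.04). SLC25A1 took the opposite sign for reads not divided by length (-0.704) and was not called there. IDH1, the cytosolic isocitrate dehydrogenase, named after its value was seen, was at -0.94 and was called lower with median-of-ratios (-1.12) and TMM scaling (-1.05). IDH1 was at -0.03 for reads not divided by length and -0.625 with the trend on gene length removed, and was called under neither. The cytosolic malic enzyme ME1 was called lower with median-of-ratios scaling (-1.02).

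Among 7 tested genes of lipoylation and dehydrogenase cofactors 2 were called higher and 1 lower, beside 28.7% and 23.5% of all tested genes. LIAS, the lipoyl synthase whose product the E2 subunits carry, was at 53.6, 53.9 and 51.6 rescaled FPKM in pika and 25.3, 19.6 and 21.8 in mouse (log2 fold change 1.22). MRPS36, an adaptor of the 2-oxoglutarate dehydrogenase complex, was higher (1.87) but not for reads not divided by length (0.62), and OGDHL was the gene called lower. GCSH, the lipoyl-carrying protein of glycine cleavage, was also called lower with median-of-ratios (-1.10) and TMM scaling (-1.04). For reads not divided by length GCSH was at -0.30 and not called. Of 4 assembly factors of succinate dehydrogenase, SDHAF3 was higher (2.03) and SDHAF4 (-2.10) and SDHAF1 (-1.02) were lower. SDHAF3 rested on 19, 8 and 27 mouse reads and was at -0.90 for reads not divided by length. SDHAF1 lost its call without pika replicate 1 (-0.94), mouse replicate 2 (-0.99) or mouse replicate 3 (-0.995), and both lower factors lost it without rescaling (0.15 for SDHAF1 and -0.79 for SDHAF4).

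Of 9 tested genes of mitochondrial deacylation, transhydrogenation and biogenesis, 5 were called higher and 0 lower, beside 28.7% and 23.5% of all tested genes. TFAM, which packages and transcribes mitochondrial DNA, was at 123.3, 119.5 and 118.6 rescaled FPKM in pika and 24.6, 21.2 and 25.9 in mouse (log2 fold change 2.29). The deacetylase SIRT3 (2.86) and the coactivator PPARGC1B (3.75) were higher, the mouse level of PPARGC1B resting on 4, 4 and 3 reads. NNT, the nicotinamide nucleotide transhydrogenase, was at 149.3, 143.9 and 145.1 in pika, against 33.2, 27.8 and 28.8 in mouse (2.25). The C57BL/6J strain is known to carry a deletion within Nnt, whose part in this difference was not tested. GABPA, a transcription factor of nuclear genes for mitochondrial proteins, was at 42.9, 40.0 and 42.2 in pika, against 81.3, 77.4 and 76.5 in mouse. Its libraries did not overlap, and the difference, at -0.90 on the log2 scale (limma-trend adjusted p = 4.1e-07), was under the fold minimum. GABPA was called lower with median-of-ratios (-1.07) and TMM scaling (-1.01) and for reads not divided by length (-1.23). PDHA1, PDK3, ME1, GCSH and GABPA were named after their values were seen. Proliferation genes moved beside these results, and all 10 tested were called higher in pika, beside 28.7% of all tested genes. Among them were MCM2 (4.08), TYMS (3.64), MCM6 (3.46) and TOP2A (3.36). The summed levels of the proliferation genes were 3030 to 3096 in pika and 325.9 to 330.4 in mouse. Their part in the levels of the cycle enzymes was not tested.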

How the data were processed

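RNA-seq was measured in 3 pika and 3 mouse fibroblast libraries. The authors deposited 1 FPKM value per gene and library, per the file headers. CASAVA 1.9, STAR 2.6.1a, featureCounts, edgeR 3.28.1 and build GRCm38 are listed without role or order in the submitters' processing notes, and no source used here names the pika annotation. Symbols for 49326 of 49585 mouse identifiers came from a gene table, and symbols found once in each table were joined, with mouse Fh1 matched to FH.

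Each library was rescaled to a sum of 1000000 over the joined genes. The test was limma-trend (R 4.3.3, limma 3.58.1), two-sided, on log2(value + 1) of the genes whose deposited FPKM averaged at least 1 in pika or in mouse, with Benjamini-Hochberg adjustment over all tested genes. Fold changes are on this scale, so for low genes they are understated. Because the values are FPKM and not counts, no count model was the main test. The fit was checked on simulated data with the same gene lengths in both groups and few changed genes. That check therefore says nothing of the effects of gene model length or of the scaling.

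Whole reads and model lengths were worked out from the steps of the FPKM values, with a tolerance of 0.002 reads. They add up to 95.7% to 97.2% of the totals, and for some genes both reads and length may be divided by the same whole number. The members, gene lists and alternatives were chosen with earlier results of these data known. The named genes are the 9 members, the other cycle genes, up to 4 called genes with the largest fold change per further list, and up to 2 more by level where fewer than 2 were called. Of the listed genes, 2 are not reported here and were left out of the lists' counts. The mean chi-square per gene between replicate libraries was 1.35 to 1.52 in pika and 1.50 to 2.94 in mouse, and no pair was a repeat. Further work used scipy 1.17.1 and pandas 2.3.3 under Python 3.11.15.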

Additional observations from a re-analysis of the deposited data

How the results depend on the processing

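Over the 16 alternatives SUCLG1 kept its call and direction in all, MDH2 in 15 and MDH1 in 14. Without rescaling 9 members were called higher and 0 lower, over all genes 6030 were higher and 1106 lower, and the median of the members was 1.97 beside 1.29 over all genes, so the median of all genes moved too. SUCLA2 was then at 1.14, reversed from -0.12. The median of the members was 0.57 with median-of-ratios scaling, 0.63 with TMM scaling, 0.885 for reads not divided by length and 0.68 with the trend on gene length removed, an alternative chosen after seeing the data. CS was at -0.116 with median-of-ratios and -0.055 with TMM scaling, and IDH2 at -0.043 with median-of-ratios scaling. With the filter at 5 FPKM 1584 genes were called lower, against 2433, among fewer genes tested. Higher calls were 55.0% of all calls on the shared-gene scale, 84.5% without rescaling and 48.9% under median-of-ratios. As log2 differences of reads not divided by length, IDH2/IDH3A was 0.19, MDH1/MDH2 0.25, IDH3A/CS -0.75, OGDH/CS -0.27 and MDH2/CS -0.20, each reversed. The causes of these moves were not tested. Leaving out 1 library gave 2940 to 2985 genes called higher, 2416 to 2448 lower, 3 members higher and 0 lower, and a member median of 0.70 to 0.77; IDH3A/IDH3B ranged from -0.139 to 0.068, the reversed value being without mouse replicate 1. The replicate numbers are shared by both species, but same-numbered libraries did not deviate together (correlations of -0.009, 0.048 and 0.009). With the replicate number as a block 3 members were called higher and 0 lower, 2973 genes higher and 2433 lower. Depth limits the mouse values most, with 113 to 1012 reads per member and library in mouse beside 427 to 4184 in pika.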

Other observations

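The shares of the 9 enzymes were taken within their summed level per length of the gene model, and again within their reads. MDH2 held 27.8%, 27.4% and 27.8% of the sum in pika and 18.8%, 18.3% and 17.3% in mouse, and CS held 15.5%, 15.7% and 15.8% in pika and 26.5%, 27.2% and 28.2% in mouse. SUCLG1 held 12.3%, 11.7% and 11.6% in pika and 3.59%, 3.43% and 3.32% in mouse, while IDH3B held 7.34% to 7.88% in pika and 7.35% to 8.06% in mouse. In reads not divided by length MDH2 held 18.6%, 18.3% and 18.6% in pika and 18.8%, 18.4% and 17.5% in mouse, overlapping between the species, and CS held 25.0%, 25.4% and 25.6% in pika and 21.1%, 21.7% and 22.5% in mouse. SUCLG1 held 8.26% to 8.77% in pika and 4.34% to 4.67% in mouse, and IDH3B 6.01% to 6.43% in pika and 7.08% to 7.81% in mouse.

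The 5 genes outside the list whose centred levels over the 6 libraries were nearest to the mean of the 9 enzymes were ARGLU1, DEDD, CD44, MCOLN1 and CCDC80, at Euclidean distances of 0.035 to 0.057 on the log2 scale. Their log2 fold changes were 0.81 to 0.83, beside a mean of 0.82 for the enzymes. This closeness follows from the choice of genes by that distance and is no result about them. CD44, a hyaluronan receptor, averaged 845.0 rescaled FPKM in pika and 477.7 in mouse.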
